A study of Mus musculus with 9 samples.

Results

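The genes described here are the mouse zinc finger genes named Zfp and a number that lie on chromosomes 7 and 13. They were taken from the deposited expression table by symbol and chromosome alone, and put in order of their start position. There were 117 of them among the 25965 rows of the table, 86 on chromosome 7 and 31 on chromosome 13. Most Zfp genes encode proteins with a row of C2H2 zinc fingers, small zinc-binding folds that each contact a few bases of DNA, so that a row of fingers reads a longer site. Many mouse members also carry a KRAB domain, which recruits the protein Trim28 and, through it, enzymes that lay down repressive chromatin, and the family is best known for silencing transposable elements and some imprinted genes. Such genes arose by repeated local duplication, so that relatives sit side by side in tandem clusters.

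The 9 RNA libraries were of neural stem cells, the self-renewing cells of the developing brain, from C57BL/6 embryos of day 14.5 with floxed alleles of Smchd1. The protein it encodes is a chromatin factor of the SMC family that helps to keep the inactive X chromosome, certain imprinted genes and clustered gene families silent. The 4 Smchd1 del/del libraries (female 1, 2 and 3 and male 5) came from cultures given a retrovirus with Cre recombinase and a puromycin cassette, with puromycin from 24 h and harvest 7 days after transduction. The 5 Smchd1 fl/fl libraries (female 1, 2 and 3, male 5 and male 7) came from the untransduced remainder of the lines, so that loss of Smchd1 and the retrovirus with selection cannot be told apart. The number in a library's name is that of its line, and libraries with the same number came from 1 line that was divided. Where the design text of the series differs (all libraries female, del/fl controls), the labels of the samples were used.

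Depth varied from 12.9 M reads in listed genes in female fl/fl 2 to 44.9 M in male fl/fl 7. Female fl/fl 2 stood apart: 53.3% of its reads fell in listed genes, against 34.8% to 44.4% in the other libraries, and results that rest on it are given with and without it. Smchd1 itself, a row over the whole gene, had log2 RPM of 5.36, 5.04, 5.21 and 5.23 in del/del libraries, against 6.36, 6.81, 6.16, 6.25 and 6.37 in fl/fl libraries (limma, adjusted p = 0.00751). RPM is the number of reads of a gene scaled to a common total, reads per 1 M, and every level below is log2 RPM as deposited. All 8 listed neural stem cell markers, Sox2, Nes and Pax6 among them, were expressed. Among markers of other cells, the summed level of 6 neuronal genes was 18.4 to 21.6 RPM in del/del and 20.6 to 26.4 RPM in fl/fl libraries, none of the 5 fibroblast genes passed the filter on low values (summed level 1.87 to 13.3 RPM in del/del and 1.95 to 2.97 RPM in fl/fl libraries), and 3 of 6 astrocyte markers (Slc1a2, Gfap and Aqp4) were higher in del/del libraries. Of the 7 interferon response genes that passed the filter, 6 were higher in del/del libraries, with a median log2 fold change of 2.08, and their part in the results below was not tested. Of the oligodendrocyte, microglia and endothelium markers 4, 3 and 1 were kept, and none of these passed.

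Of the 117 genes, 99 were expressed well enough to test, meaning that 3 or more libraries had a log2 level of 0 or higher, 75 on chromosome 7 and 24 on chromosome 13. The same rule kept 14044 genes in all. Of the 99, 1 reached that level in fl/fl libraries alone, and 0 did so in del/del libraries alone. The other 18 genes, among them Zfp296, Zfp541, Zfp14 and Zfp114, never passed 119 reads in a library, and 1 of them had no read in any. Relative to the length of its row, the kept gene with the highest level was Zfp36, at 8.37 RPM per kb in del/del and 8.29 RPM per kb in fl/fl libraries. Zfp36 encodes tristetraprolin, which binds AU-rich RNA with fingers of another type and carries 0 C2H2 fingers. The lowest was Zfp953, at 0.0273 RPM per kb in del/del and 0.0383 RPM per kb in fl/fl libraries, with introns counted in the length. The medians over the 99 were 0.548 RPM per kb in del/del and 0.635 RPM per kb in fl/fl libraries.

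No zinc finger gene of the 99 passed the test between del/del and fl/fl cells, in either direction, and most of their estimates were small and negative. Over both sexes 203 of all genes tested were higher in del/del libraries (1.45%) and 14 were lower (0.0997%), by limma with Benjamini-Hochberg adjustment at 0.05; among the 99 the counts were 0 and 0, and the smallest adjusted p was 0.250, for Zfp74. In such bulk RNA, fewer cells of a kind and less RNA per cell cannot be told apart. At an unadjusted p under 0.05, 9 of the 99 were lower (9.09%), against 1.78% of all genes, and 0 were higher, against 8.06% of all genes. The 9 are Zfp128, Zfp61, Zfp74, Zfp82, Zfp143, Zfp764, Zfp689, Zfp941 and Zfp493. A test on the recovered reads with limma's voom likewise called 0 of the 99, against 1.77% of all genes higher and 0.107% lower, with 10 lower and 0 higher at an unadjusted p under 0.05 (1.9% and 8.17% of all genes), and so did a fit with the line number as a block, whose smallest adjusted p was 0.0696 (Zfp493). That block raised the counts over all genes to 529 higher (3.77%) and 32 lower (0.228%).

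The estimates as a whole lay slightly below 0. The median log2 fold change was -0.10 over the 99 and -0.00 over all genes tested, and 75 of the 99 had a negative estimate (75.8%), against 51.1% of all genes. The estimates ran between -0.56 (Zfp493) and 0.21 (Zfp579). The 198 kept Zfp genes with a number on other chromosomes had a median of -0.07, and 138 of them were below 0 (-0.01 and 108 without female fl/fl 2). At an unadjusted p under 0.05 by limma, 15 of the 198 were lower (7.58%) and 3 were higher. Whether the displacement is particular to chromosomes 7 and 13 was not tested. One of those 198 passed, Zfp711 on the X chromosome, a gene whose human counterpart is linked to intellectual disability, with a log2 fold change of 0.65 (SE 0.11, adjusted p = 0.0208, limma). Its levels were 3.69, 3.47, 3.54 and 3.63 in del/del libraries, against 2.96, 3.13, 2.71, 2.92 and 2.96 in fl/fl libraries, with no overlap. Most of the 99 have low levels. Among the 3511 genes with the lowest mean level, the lowest of 4 equal bins, the median was -0.16 over the 42 zinc finger genes in it and 0.14 over all genes in it. In the next 2 bins the medians were -0.04 over 31 zinc finger genes against 0.01 over all genes, and -0.10 over 23 against -0.02. The highest bin held 3 of the genes, with -0.16 against -0.05.

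**Figure D1:**
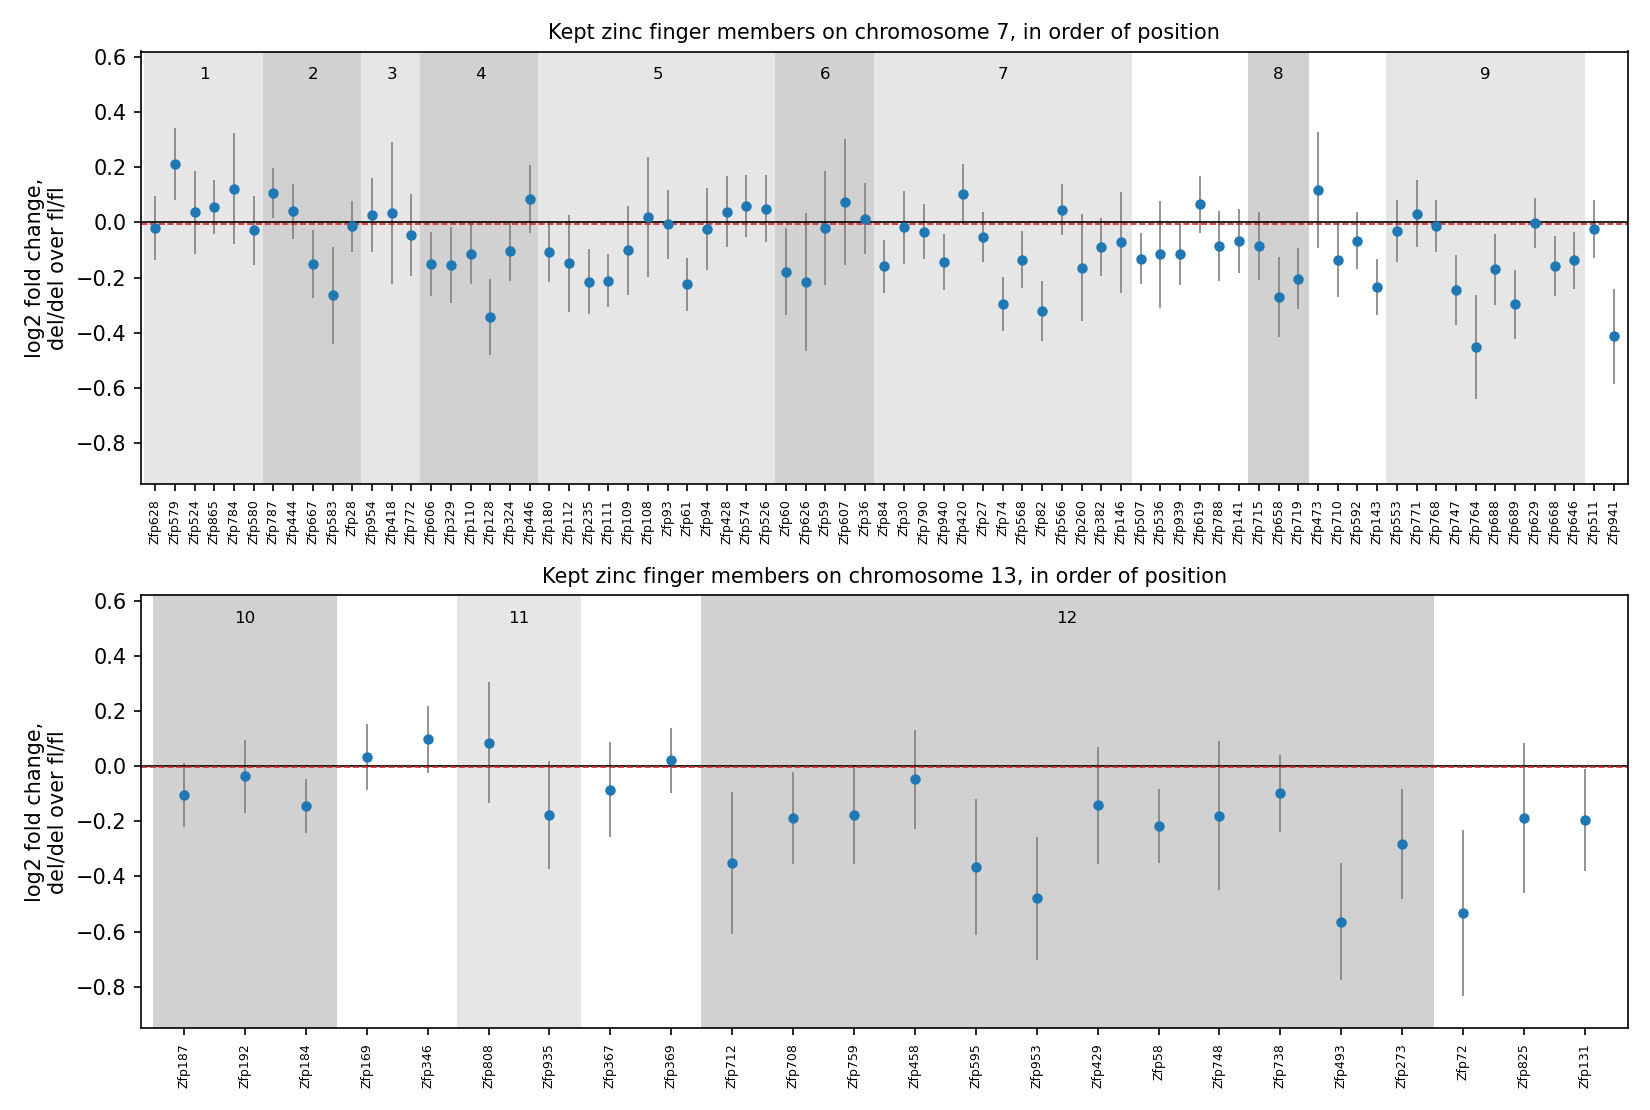
Estimated log2 fold change, del/del over fl/fl, of the 99 kept zinc finger genes in order of position (upper panel chromosome 7, lower panel chromosome 13); points are limma estimates over both sexes, vertical lines 1 standard error, grey bands the numbered tandem clusters, and the dashed red line the median of all 14044 genes. Most points lie below 0, and all 12 of cluster 12 do.

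Within the lines the same displacement was uneven. The median difference of del/del minus fl/fl over the 99 genes was -0.01 in female line 1, -0.23 in female line 2, -0.02 in female line 3 and -0.14 in male line 5. Over all genes tested these medians were 0.22, -0.25, 0.10 and 0.08 in the same order, so that line 2, which holds female fl/fl 2, was the only one of the 4 in which all genes were displaced downward too. Del/del was below fl/fl for 51 of the 99 in line 1 (51.5%, against 18.7% of all genes), for 75 in line 2 (75.8%, against 68% of all genes), for 54 in line 3 (54.5%, against 24.4%) and for 74 in line 5 (74.7%, against 31%). In all 4 lines at once, 21 of the 99 were lower (21.2%), against 4.05% of all genes, and 3 were higher (3.03%), against 17.9% of all genes. The 3 were Zfp787, Zfp444 and Zfp574. Of the 198 kept Zfp genes with a number on other chromosomes, 29 were lower in all 4 lines.

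Without female fl/fl 2 the median over the 99 was -0.04 and that over all genes 0.08, and 63 of the 99 were below 0, against 26.3% of all genes. Within the 6 libraries whose descriptions start with RNA-, which the labels do not explain, the median over the 99 was -0.14 and over all genes -0.05, and 11 of the 99 were lower at an unadjusted p under 0.05 (1.73% of all genes). With quantile normalization the 99 held 27 such genes, against 6.65% of all genes. The 3 libraries without the prefix hold a single pair of del/del and fl/fl and allowed no test.

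In females alone 0 of the 99 passed (smallest adjusted p = 0.671, limma), against 2 of all genes that were higher (0.0142%) and 0 that were lower (0%). The median over the 99 was -0.10, and 72 were below 0, against 51.9% of all genes. By female line, the median difference was -0.01, -0.23 (line 2, with female fl/fl 2) and -0.02, against 0.22, -0.25 and 0.10 over all genes. At an unadjusted p under 0.05, 3 of the 99 were lower (0.627% of all genes) and 0 higher (5.9% of all genes). In males, with 1 del/del library that was assumed to vary like the others, 0 of all genes passed (0% in either direction), the median over the 99 was -0.11 and 78 were below 0, against 49% of all genes. The difference between the sexes passed for 0 of all genes by limma (0%), and at an unadjusted p under 0.05 for 6 genes (0.0427%), 0 of them among the 99.

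In 6 genes every del/del library lay below every fl/fl library: Zfp128, Zfp235, Zfp74, Zfp82, Zfp941 and Zfp953. That is 6.06% of the 99, against 0.99% of all genes tested. It held for 11 of the 198 kept Zfp genes with a number on other chromosomes (5.56%), a share close to that of the 99. The opposite order held for 0 of the 99, against 5.53% of all genes. None of the 6 passed the test. Without female fl/fl 2, a choice made after the values were seen, 8 genes did not overlap (180 of all genes, 1.28%), with Zfp583 and Zfp689 added.

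Zfp74 and Zfp82 lie close together in a cluster on chromosome 7 at 29768552 to 30169727 (mm10, as are all coordinates of the table). The windows over their annotated start sites are printed with those of Zfp953 and of Zfp784, because the 4 differ in CpG content. Zfp784, of the most proximal cluster, had a log2 fold change of 0.12 (SE 0.20), and 0.01 without female fl/fl 2. Its row overlaps that of 4632433K11Rik. Each window has 300 bases, 5' to 3' on the gene's strand, from RefSeq on GRCm38.p6, with every CG in capitals.
Zfp784 (chr7:5038397-5038696, minus strand): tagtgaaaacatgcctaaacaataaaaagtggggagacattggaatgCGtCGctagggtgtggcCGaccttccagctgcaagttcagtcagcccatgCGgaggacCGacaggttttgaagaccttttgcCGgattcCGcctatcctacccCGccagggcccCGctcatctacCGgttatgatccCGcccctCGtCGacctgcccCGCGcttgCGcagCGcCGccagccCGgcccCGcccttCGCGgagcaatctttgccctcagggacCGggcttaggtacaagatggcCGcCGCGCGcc
Zfp74 (chr7:29954016-29954315, minus strand): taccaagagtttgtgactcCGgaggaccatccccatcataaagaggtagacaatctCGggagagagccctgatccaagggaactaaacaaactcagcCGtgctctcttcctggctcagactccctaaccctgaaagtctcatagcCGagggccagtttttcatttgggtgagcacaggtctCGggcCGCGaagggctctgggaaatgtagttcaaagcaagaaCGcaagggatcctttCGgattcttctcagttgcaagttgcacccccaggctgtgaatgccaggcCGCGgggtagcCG
Zfp82 (chr7:30072774-30073073, minus strand): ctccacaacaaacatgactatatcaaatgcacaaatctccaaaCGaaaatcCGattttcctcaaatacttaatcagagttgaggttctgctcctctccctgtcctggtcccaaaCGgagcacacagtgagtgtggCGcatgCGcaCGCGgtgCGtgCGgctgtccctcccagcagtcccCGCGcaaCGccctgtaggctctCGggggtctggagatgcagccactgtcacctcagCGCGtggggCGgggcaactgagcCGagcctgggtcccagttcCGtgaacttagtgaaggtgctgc
Zfp953 (chr13:67360523-67360822, minus strand): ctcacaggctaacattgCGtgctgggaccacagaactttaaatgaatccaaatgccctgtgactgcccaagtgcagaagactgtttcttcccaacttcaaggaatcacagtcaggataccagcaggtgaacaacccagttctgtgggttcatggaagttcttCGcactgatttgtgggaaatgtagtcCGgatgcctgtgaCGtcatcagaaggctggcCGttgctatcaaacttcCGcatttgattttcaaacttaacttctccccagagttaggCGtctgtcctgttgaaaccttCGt

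CG, which reads the same on both strands and cannot overlap itself, occurred 27 times in the Zfp784 window, 18 times in that of Zfp82, 12 times in that of Zfp74 and 8 times in that of Zfp953. Windows were found for 102 of the 117 genes, with a median of 13, and 67.65% held at least 10. Over all 27025 genes with such a window the median was 8, and 45.84% held at least 10. In the most proximal chromosome 7 cluster the median was 21.5 over 4 windows, and in the large chromosome 13 cluster 8.5 over 16 windows, of which 31.25% held at least 10.

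Zfp74 spans 29930815 to 29954089 on chromosome 7 and encodes 18 fingers. Its levels were 3.19, 3.19, 3.29 and 3.19 log2 RPM in del/del libraries, against 3.64, 3.56, 3.36, 3.58 and 3.39 in fl/fl libraries. The groups did not overlap, female del/del 3 being the highest of its group and female fl/fl 3 the lowest of its own. The log2 fold change was -0.30 (SE 0.10, adjusted p = 0.250, limma), which is 1.23-fold lower. Without female fl/fl 2 the estimate was -0.28. Its row overlaps the row of C230062I16Rik, and reads in the shared stretch may count for both, since the counting is not known.

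Zfp82, at 30056038 to 30072823, encodes 12 fingers. Levels were 2.72, 2.62, 2.51 and 2.71 in del/del libraries, against 3.12, 2.99, 2.80, 3.05 and 2.88 in fl/fl libraries. Del/del was lower in each of the 4 lines, by similar amounts of -0.40, -0.37, -0.29 and -0.33. Its estimated log2 fold change was -0.32 (SE 0.11, adjusted p = 0.266, limma).

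Zfp128, at 12881177 to 12893422 on chromosome 7, had levels of 1.95, 1.81, 1.80 and 1.84 in del/del libraries, against 2.48, 2.01, 2.04, 2.33 and 2.12 in fl/fl libraries. The del/del levels were tightly grouped and the fl/fl levels spread upward, with female fl/fl 1 highest. The estimate was a log2 fold change of -0.34 (SE 0.14, adjusted p = 0.398, limma).

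Zfp235, at 24134174 to 24142266 on the same chromosome, had levels of 1.91, 1.82, 1.89 and 1.84 in del/del libraries, against 1.99, 1.95, 2.23, 2.03 and 2.21 in fl/fl libraries. The gap between the groups was small, and female fl/fl 3 and male fl/fl 7 were the highest. A log2 fold change of -0.21 was estimated (SE 0.12, adjusted p = 0.703, limma).

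Zfp941, at 140807449 to 140822178 near the distal end of chromosome 7, stands outside the clusters. Its levels were 1.04, 1.62, 1.77 and 1.60 in del/del libraries, against 1.98, 2.01, 1.80, 1.79 and 2.07 in fl/fl libraries. Female del/del 1 was far below the others, and the line differences were accordingly uneven, at -0.94, -0.38, -0.02 and -0.19. Its log2 fold change was -0.41 (SE 0.17, adjusted p = 0.445, limma).

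Zfp953, at 67317942 to 67360605 on chromosome 13, had levels of 0.39, 0.30, 0.22 and -0.06 in del/del libraries, against 0.65, 0.73, 0.46, 1.12 and 0.48 in fl/fl libraries. Male del/del 5 was lowest and male fl/fl 5 highest. The log2 fold change was -0.48 (SE 0.22, adjusted p = 0.540, limma). Its row overlaps those of Zfp595 and Zfp456, and reads in the shared stretches may count for more than 1 of them. In all, 16 of the 117 genes overlapped another row, and over the 85 kept genes that overlapped none the median log2 fold change was -0.09, with 64 below 0 (-0.02 and 53 without female fl/fl 2).

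**Figure D2:**
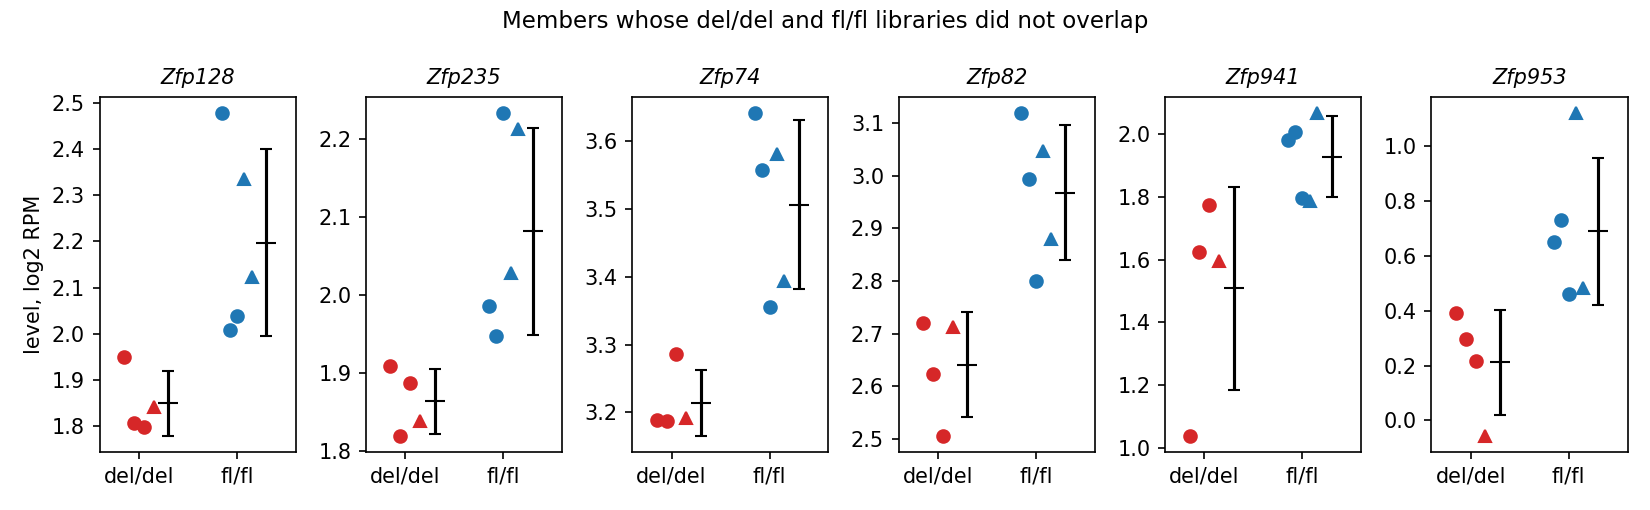
Level in log2 RPM of the 6 zinc finger genes whose del/del libraries (red, left, n = 4) all lay below their fl/fl libraries (blue, right, n = 5); circles are female and triangles male libraries, and the bars show the mean and SD of each group. In each panel the highest del/del library lies just below the lowest fl/fl library, and the scale differs between panels.

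By the distance rule, in which genes belong to 1 cluster while the gap to the next is at most 500 kb, 95 of the 117 genes lay in 12 clusters of at least 3, 9 on chromosome 7 and 3 on chromosome 13. They are numbered here by position, clusters 1 to 9 on chromosome 7 and 10 to 12 on chromosome 13. The kept genes in clusters numbered 80, and 19 kept genes stood outside them with a median log2 fold change of -0.08 with all libraries and -0.02 without female fl/fl 2.

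The tandem neighbours mostly shared the sign of their estimates, most of them below 0. Of the 68 pairs of adjacent kept genes within a cluster, 52 had estimates of the same sign (76.5%), 44 pairs both below 0 and 8 both above. Among 13163 pairs of adjacent kept genes of the whole genome the share was 57.8%, and among 8134 pairs without overlapping rows 54.7%. Signs were less even among the 99 (75.8% below 0) than among all genes (51.1%), so the 76.5% and these shares are not like for like. After the median of the 99 was subtracted from each estimate, 43 of the 68 pairs shared a sign (63.2%). The share over all genes was 57.8% after their own median was subtracted. The median absolute difference between neighbours was 0.12 in the clusters and 0.14 over all genes. By line, 38, 52, 41 and 48 of the 68 pairs shared a sign in lines 1, 2, 3 and 5. Without female fl/fl 2 the count was 43 (63.2%), and 40 after the median was subtracted (58.8%). No share over all adjacent genes was taken by line or without that library. The 57.8% does not serve there either, since the signs of all genes were less even (26.3% below 0 without female fl/fl 2). Gaps of at most 200 kb gave 74.1% of 58 pairs, and gaps of at most 1000 kb 76.1% of 71 pairs. These shares carry no test, since neighbours can share reads, sequence and library.

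The cluster with the most members, cluster 12, lies on chromosome 13 at 66670769 to 67827000 and holds 17 of the genes. In mouse this is the neighbourhood of Rsl1, a KRAB zinc finger gene known for restraining male-specific genes in liver. All 12 of its kept genes had negative estimates, between -0.56 for Zfp493 and -0.05 for Zfp458, with a median of -0.20; none passed the test. The 5 others, Zfp640, Zfp455, Zfp457, Zfp456 and Zfp459, did not pass the filter.

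The median level of the 12 genes was 1.21, 0.99, 0.76 and 1.04 log2 RPM in female del/del 1, 2 and 3 and male del/del 5, against 1.32, 1.83, 1.02, 1.62 and 1.01 in female fl/fl 1, 2 and 3 and male fl/fl 5 and 7. Female fl/fl 2 and male fl/fl 5 were the high libraries, and the other 3 fl/fl libraries lay within or close to the del/del range. By line the median difference was -0.00 in line 1, -0.54 in line 2, -0.19 in line 3 and -0.39 in line 5, with 7, 12, 11 and 12 of the 12 genes below 0. Of the 12 genes, 6 were lower in all 4 lines: Zfp712, Zfp708, Zfp759, Zfp595, Zfp953 and Zfp493. Without female fl/fl 2 the median was -0.09, and 10 of the 12 were below 0. Over the 24 kept genes of chromosome 13 the median was -0.18 with all libraries, against -0.00 over all genes. It was -0.01 without female fl/fl 2, against 0.08 over all genes, and 15 of the 24 were then below 0, against 26.3% of all genes.

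**Figure D3:**
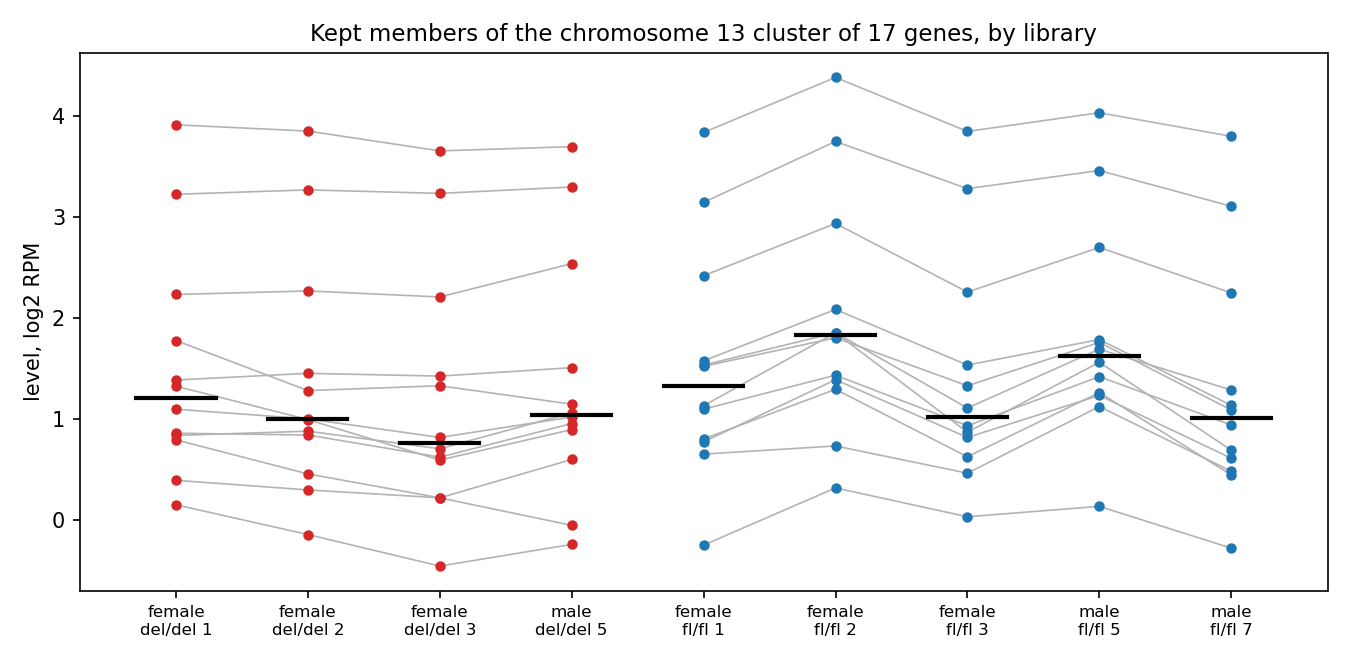
Level in log2 RPM of the 12 kept genes of the chromosome 13 cluster in each library, del/del libraries on the left (red) and fl/fl libraries on the right (blue); grey lines join the same gene within a genotype and black bars give the median of the 12. The medians are 0.76 to 1.21 in del/del libraries and 1.01 to 1.83 in fl/fl libraries, with female fl/fl 2 and male fl/fl 5 highest.

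Zfp493, at 67779693 to 67789082, had the most negative estimate of the cluster and of the 99. Its levels were 1.32, 0.99, 0.59 and 0.89 in del/del libraries, against 1.52, 1.80, 1.33, 1.75 and 1.09 in fl/fl libraries. Female del/del 1 stood above male fl/fl 7, so the groups overlapped, although del/del was lower in all 4 lines (-0.20, -0.81, -0.73 and -0.86). The log2 fold change was -0.56 (SE 0.21, adjusted p = 0.359, limma), or 1.48-fold lower. Zfp458, at the other end of the cluster's range, had levels of 1.38, 1.45, 1.42 and 1.50 in del/del libraries, against 1.53, 1.85, 1.10, 1.69 and 1.28 in fl/fl libraries. Its groups overlapped throughout, with a log2 fold change of -0.05 (SE 0.18) with all libraries and 0.07 without female fl/fl 2.

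Rows inside the cluster that are not numbered Zfp genes also had mostly negative estimates. They comprised 13 kept rows, among them Rsl1, Zfp874a, Zfp874b, Uqcrb and Ptdss1, with a median of -0.09 and 12 below 0. Their median was 0.05 without female fl/fl 2, and 3 were then below 0, against 0.08 and 26.3% over all genes. With all libraries, such rows had medians of 0.05 in cluster 5 (4 of 15 below 0) and 0.03 in cluster 6 (6 of 14). In clusters 8 and 9 the medians were 0.06 (0 of 3) and -0.00 (10 of 19). In clusters 1, 4 and 10 they were -0.06 (3 of 4), -0.15 (4 of 5) and -0.14 (2 of 3).

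Cluster 7, with Zfp74 and Zfp82, holds 14 of the genes and no other kept row. Its 13 kept genes had a median of -0.09 with 11 below 0, and -0.02 with 9 below 0 without female fl/fl 2. Zfp568, a KRAB repressor known to silence a placental transcript of Igf2 in mouse, belongs here. The highest estimate of the cluster was 0.10 (SE 0.11), for Zfp420. Between the lines the cluster's median was 0.07 in line 1, -0.32 in line 2, -0.07 in line 3 and -0.10 in line 5, so that the cluster as a whole did not show the even difference of Zfp82. Zfp260, a factor known from heart muscle, had levels of 5.55, 5.33, 5.36 and 5.24 in del/del libraries, against 5.35, 6.24, 5.24, 5.34 and 5.31 in fl/fl libraries. Female fl/fl 2 alone was high, and the log2 fold change was -0.16 (SE 0.19) with it and 0.04 without it. Zfp146, whose protein consists almost wholly of its 10 fingers, showed the same pattern, at 5.39, 5.06, 4.99 and 5.11 in del/del libraries, against 5.04, 5.84, 4.99, 5.01 and 5.06 in fl/fl libraries, with a log2 fold change of -0.07 with female fl/fl 2 and 0.12 without it.

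Cluster 9, at 127233061 to 127885996 on chromosome 7, had 10 genes, all kept, with a median of -0.15 and 9 below 0 (-0.18 and 6 without female fl/fl 2). Its lowest estimate was that of Zfp764, at 0.28, 0.45, 0.30 and 0.91 in del/del libraries, against 0.83, 0.90, 1.02, 1.35 and 0.84 in fl/fl libraries. Only male del/del 5 reached into the fl/fl range, and the log2 fold change was -0.45 (SE 0.19, adjusted p = 0.447, limma). Of the 50-base words of its transcripts 27.6% also occur elsewhere, most in 9130019O22Rik, so its reads may be shared with that gene. The same limit holds for its neighbour Zfp747, with 36.9% of its words elsewhere. Zfp747 and Zfp764 were lower in all 4 lines, as was Zfp689. Zfp771 had the highest estimate of the cluster, 0.03 (SE 0.12).

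Cluster 1, at 4915217 to 5053722 on chromosome 7, had a positive median. Its 6 genes had a median of 0.05, with 2 below 0 (the lower being Zfp580, at -0.03), and Zfp579 had the highest estimate of the 99. Levels of Zfp579 were 4.04, 3.80, 3.71 and 3.77 in del/del libraries, against 3.72, 3.29, 3.75, 3.55 and 3.79 in fl/fl libraries. Female fl/fl 2 was the low library here, and the log2 fold change was 0.21 (SE 0.13, adjusted p = 0.787, limma) with it and 0.11 without it. Without that library the median of the cluster was -0.03, with 4 of the 6 below 0. The row A430110N23Rik, inside the cluster and not a Zfp gene, was higher in del/del libraries, and so was 9530053A07Rik inside cluster 6.

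The other clusters had medians between -0.20 and 0.03, several of which shifted without female fl/fl 2, as did the median of all genes (0.08 without it). Cluster 2, at 6131489 to 6396633, had a median of -0.01 over 5 kept genes (0.02 without that library), from 0.11 for Zfp787 to -0.26 for Zfp583. Cluster 3, at 7114690 to 7209998, had 0.03 over 3 genes (0.03 without it), from 0.03 for Zfp418 to -0.05 for Zfp772. Cluster 4, at 12415153 to 12984340, had -0.13 over 6 genes (-0.05 without it), among them Zfp110, an interactor of the p75 neurotrophin receptor, and ran from 0.09 for Zfp446 to -0.34 for Zfp128. Trim28, the partner that KRAB domains recruit, lies just distal to it.

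Cluster 5, at 24081924 to 25227507, had a median of -0.06 over 12 kept genes of 14 (-0.09 without female fl/fl 2), from 0.06 for Zfp574 to -0.22 for Zfp61. Cluster 6, at 27731389 to 28379255, had -0.02 over 5 genes (0.08 without it), from 0.07 for Zfp607 to -0.21 for Zfp626. Cluster 8, at 43187170 to 43618285, had -0.20 over 3 genes (-0.11 without it), from -0.08 for Zfp715 to -0.27 for Zfp658. On chromosome 13, cluster 10 at 21442175 to 21960779 had -0.10 over 3 genes, from -0.04 for Zfp192 to -0.14 for Zfp184. Its median was 0.00 without female fl/fl 2, with 1 of the 3 below 0. Cluster 11 at 62129916 to 62520544 had -0.05 over its 2 kept genes, Zfp808 and Zfp935, and 0.15 with 0 below 0 without that library. Of the genes just named, the sign also turned without it for Zfp446 (-0.01), Zfp626 (0.01), Zfp715 (0.03), Zfp192 (0.04) and Zfp772 (0.03). It turned too for Zfp935, from -0.18 with all libraries to 0.01. None of these genes passed the test, and the SE of each was 0.09 or more.

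**Figure D4:**
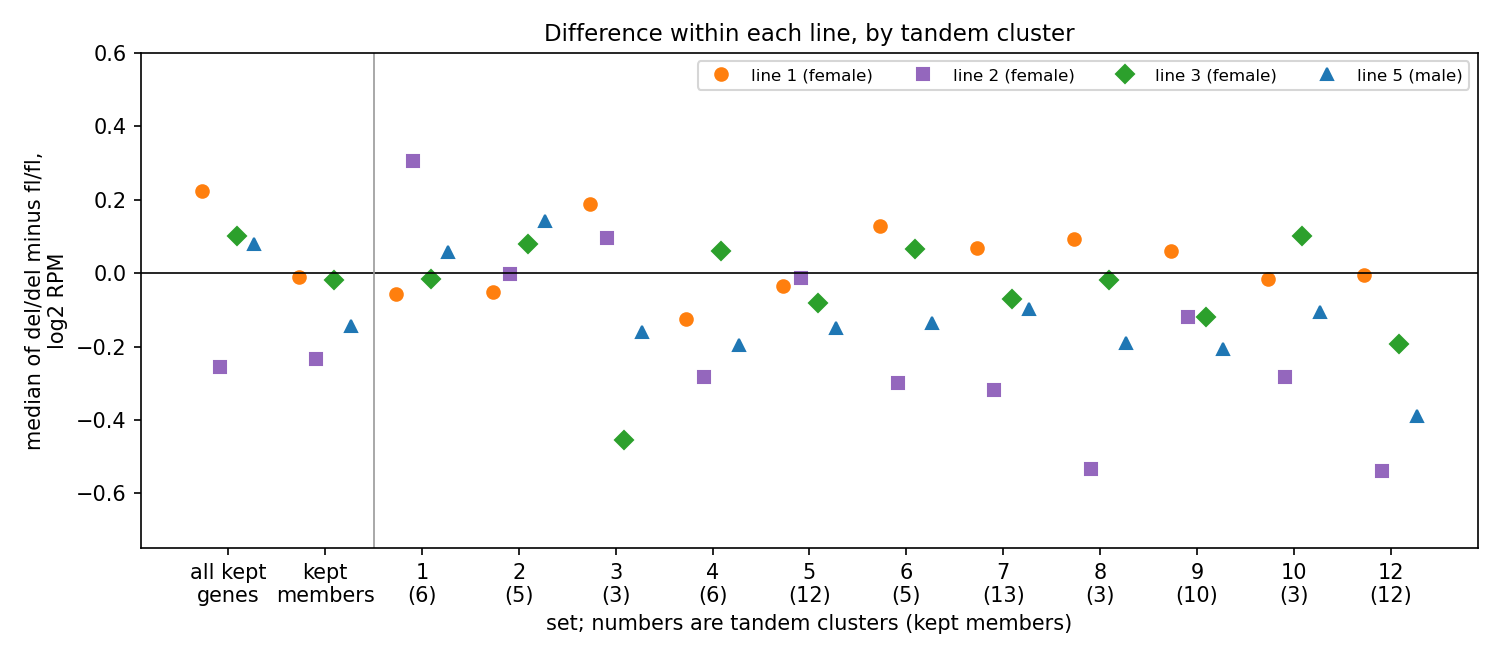
Median difference of del/del minus fl/fl in log2 RPM within each of the 4 lines, for all 14044 genes, for the 99 kept zinc finger genes and for each tandem cluster with at least 3 kept genes (number kept in brackets); each marker is 1 line. In cluster 8 the lines lie between -0.53 (line 2) and 0.09 (line 1), and line 2 is the lowest in clusters 4, 6, 7, 8, 10 and 12.

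Of the other genes with an unadjusted p under 0.05, Zfp61 in cluster 5 had levels of 3.69, 3.38, 3.42 and 3.58 in del/del libraries, against 3.73, 3.77, 3.68, 3.82 and 3.77 in fl/fl libraries. Only female del/del 1 reached the lowest fl/fl library, and the log2 fold change was -0.22 (SE 0.10, adjusted p = 0.457, limma). Zfp143, a promoter-binding activator outside the clusters, had levels of 4.84, 4.55, 4.67 and 4.56 in del/del libraries, against 4.94, 5.04, 4.76, 4.81 and 4.83 in fl/fl libraries. Female del/del 1 lay within the fl/fl range, and the log2 fold change was -0.24 (SE 0.10, adjusted p = 0.474, limma). Zfp131, a BTB-domain factor at 119765187 to 119790805 on chromosome 13, had the highest level in RPM of the 99, at 6.28, 6.02, 6.04 and 6.00 in del/del libraries, against 6.10, 6.92, 6.06, 6.09 and 6.08 in fl/fl libraries. Its log2 fold change was -0.20 (SE 0.18) with all libraries and -0.01 without female fl/fl 2. Zfp592, also outside the clusters, had levels of 5.59, 5.42, 5.45 and 5.33 in del/del libraries, against 5.52, 5.55, 5.49, 5.33 and 5.62 in fl/fl libraries. Its groups overlapped throughout. Zfp187 in cluster 10, of the SCAN-domain kind, had 5.03, 5.01, 5.02 and 4.94 in del/del libraries, against 5.00, 5.47, 5.00, 4.98 and 4.98 in fl/fl libraries, with female fl/fl 2 alone outside the range of the others.

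The genes were also divided by a feature of their proteins, after their values were seen. All 117 matched a gene of GENCODE M21, 3 of them by an older name: Zfp607 (now Zfp607a), Zfp187 (Zscan26) and Zfp192 (Zkscan8). A coding transcript was found for 115, whose longest reading frames encoded between 0 and 33 C2H2 fingers with a median of 11. Many C2H2 proteins join successive fingers by a conserved short linker, and 81 of the 115 had at least 2 exact copies of it. Over the 71 kept genes of that kind the median log2 fold change was -0.14, with 59 below 0, and they included all 9 genes with an unadjusted p under 0.05 and all 6 without overlap. Over the 27 kept genes with 0 or 1 copies the median was -0.02, with 15 below 0. Without female fl/fl 2 the medians were -0.04 and -0.01. Within lines 1, 2, 3 and 5 the median differences were -0.04, -0.32, -0.05 and -0.16 over the first kind. Over the second kind they were 0.04, -0.11, 0.07 and -0.04 in the same order, so that the first kind was lower in each line. The windows over the start sites differed as well, with a median of 12 CG over 74 genes of the first kind and 19 over 26 of the second, kept or not. Reads can also be shared between relatives: 19 of the 117 genes had over 10% of their 50-base words in transcripts at another place, and over the 86 kept genes without them the median log2 fold change was -0.10, with 65 below 0 (-0.04 and 55 without female fl/fl 2).

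**Figure D5:**
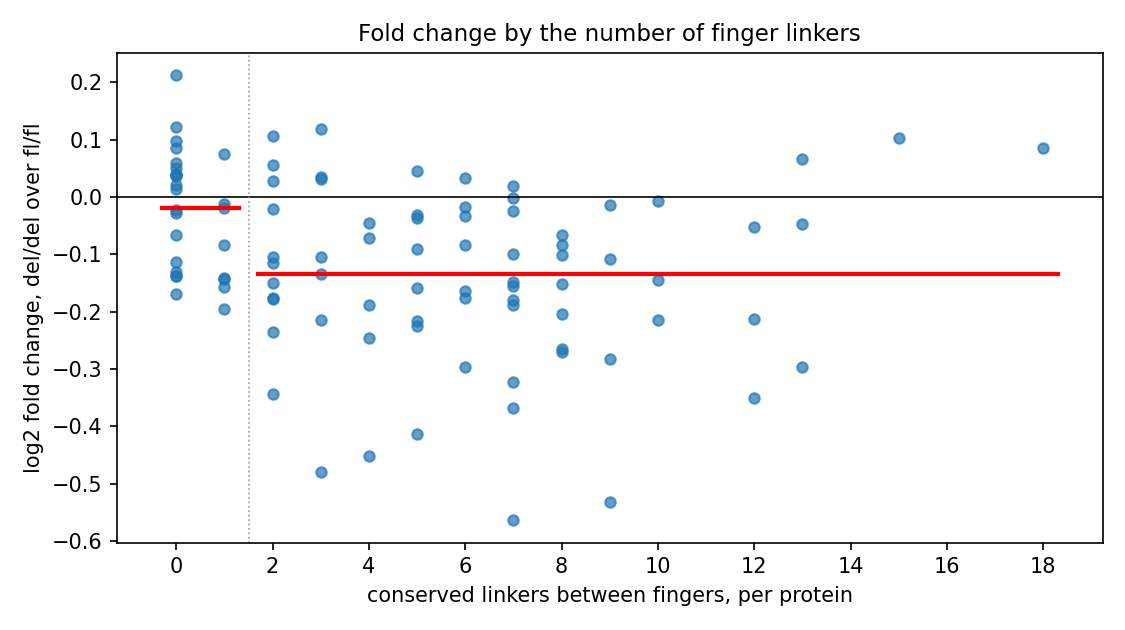
Log2 fold change, del/del over fl/fl, of each kept zinc finger gene against the number of conserved finger linkers in its protein; the red lines are the medians of genes with 0 or 1 linkers (-0.02) and with at least 2 (-0.14), and the dotted line divides them. The points of both kinds overlap, and the most negative estimates are of genes with 3 or more linkers.

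No partner of KRAB zinc finger proteins passed the test either. The list held 34 genes, of Trim28, Setdb1, the heterochromatin proteins, the Dnmt enzymes, the HUSH complex and others, and 33 were found, in 34 rows that were all kept. Of the 34 rows 0 were higher and 0 lower, 0 had an unadjusted p under 0.05, the median log2 fold change was -0.10, and 28 were below 0. Of all genes 51.1% were below 0, and 67.6% of those in the highest of the 4 level bins, where many of the partners lie. The median of the 34 rows was 0.05 without female fl/fl 2, with 12 below 0, against 0.08 and 26.3% over all genes. Trim28 had levels of 6.63, 6.11, 6.16 and 6.11 in del/del libraries, against 6.20, 7.22, 6.12, 6.07 and 6.29 in fl/fl libraries. Female del/del 1 and female fl/fl 2 were each the high library of their group. The log2 fold change was -0.17 (SE 0.23, adjusted p = 0.997, limma) with all libraries and 0.07 without female fl/fl 2.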

How the data were processed

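Per the labels, total RNA of 9 neural stem cell libraries was sequenced. The authors deposited log2 values per gene row; in every library at least 99.996% of them are log2 RPM of whole reads (tolerance 0.05 reads), with 0 reads entered as 0.9. Per the submitters' processing notes, bcl2fastq, TopHat2 2.0.12, edgeR 3.8.2 and mm10 were used; of the counter, the annotation and the strand setting no source used here says anything. Total reads were 24.1 M to 116.6 M per library; no 2 libraries were identical.

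A gene was kept where 3 or more libraries had a log2 level of 0 or higher (14044 genes). Del/del was compared with fl/fl by limma 3.58.1 in R 4.3.3 (linear model with moderated variances and an intensity trend; two-sided; Benjamini-Hochberg over all kept genes, threshold 0.05) with sex as covariate; females, males and their difference came from 4 group means. The fit was tested on simulated data. Each line gives at most 1 library per genotype, and p-values measure the spread between these libraries.

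Line numbers pair the libraries, since the protocol says that each line was divided. As a check, deviations from the group mean correlated within a line with r of 0.868, 0.582 and 0.758 in females across genes, which are not independent replicates. Female del/del 2 with female fl/fl 3 gave 0.728, above the 0.582 within line 2, so the check does not single out that pair. Both libraries of line 1 lack the RNA- prefix that the other female libraries carry, so line and prefix cannot be told apart there.

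Genes named are, per cluster, those with the highest and lowest estimate, those without overlap, the 5 with the highest level in RPM, Smchd1 and Trim28; others were chosen after their values were seen. The genes and lists were chosen with earlier results of these data known. Sequence features came from GENCODE M21 transcripts (longest reading frame) and RefSeq windows (GRCm38.p6). The alternatives were other scalings, filters, a pseudocount of 1 RPM, voom, the line block, each library left out, the libraries with 1 prefix and rows without overlap.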

Additional observations from a re-analysis of the deposited data

Results flagged for a closer look

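Samples far from the rest of their group were looked for in 66 groups of libraries, the del/del and fl/fl libraries of the named genes, Smchd1 and Trim28. By Dixon's test at the 95% level 12 groups held one, and chance gives about 1 in 20. In 7 of the 12 it was female fl/fl 2, lying above its group.

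In log2 RPM, female fl/fl 2 had 1.56 for Zfp626 (others 0.42 to 0.74), 6.24 for Zfp260 (others 5.24 to 5.35), 5.84 for Zfp146 (others 4.99 to 5.06), 5.04 for Zfp715 (others 4.54 to 4.59), 5.47 for Zfp187 (others 4.98 to 5.00), 6.92 for Zfp131 (others 6.06 to 6.10) and 7.22 for Trim28 (others 6.07 to 6.29). That library is the shallowest and has the largest share of reads in listed genes; the part of either in these values was not tested. Male fl/fl 7 was highest for Zfp787, at 4.48 (others 4.22 to 4.29), and lowest for Zfp418, at 0.397 (others 1.00 to 1.21). Female del/del 1 was highest for Zfp131, at 6.28 (others 6.00 to 6.04), and for Trim28, at 6.63 (others 6.11 to 6.16). Female del/del 3 was highest for Zfp74, at 3.29 (others 3.19 to 3.19).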

How the results depend on the processing

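No zinc finger gene of the 99 passed under any of the 20 alternatives over both sexes, the 19 in females or the 18 for the difference between the sexes; the smallest adjusted p in any was 0.0696 over both sexes (replicate block), 0.349 in females and 1.00 for the difference. Over both sexes the smallest adjusted p was 0.137 within the 6 libraries with the RNA- prefix, 0.123 with median centring and 0.276 with voom. The median log2 fold change of the 99 stayed between -0.16 (quantile normalization) and -0.04 (without female fl/fl 2), and with 1 library left out between -0.15 and -0.04. Its distance from the median of all genes was -0.10, and negative in all 21 settings, between -0.14 and -0.07. The median of cluster 12 ranged between -0.43 and -0.09, reaching -0.09 without female fl/fl 2, and with 1 library left out between -0.27 and -0.09. With the replicate block 529 of all genes were higher and 32 lower, against 203 and 14, and the block changed no call among the 99. Quantile normalization gave 27 of the 99 lower at an unadjusted p under 0.05 (6.65% of all genes), against 9; the cause was not tested. Of 611 estimates of named genes under alternatives, 36 had the other sign, in 14 genes. Leaving out male del/del 5 allowed no fit of the difference between the sexes. Depth limits the 18 genes below the filter, whose reads allow no statement.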
